A study of Homo sapiens with 20 samples.

Results

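Chromatin accessibility was compared between SW872 cells that carried YAP-TFE3 and SW872 cells that carried YAP5SA, an activated form of YAP. The members are the peaks of both deposited lists, 235795 for YAP-TFE3 and 230886 for YAP5SA. Together they make up 466681 of the 1407450 peaks in the 7 lists of the series. A peak was counted as shared where it overlapped a peak of the other list by at least 1 bp. A peak was called one-sided where its summit reached 6 on the −log10 p scale and no peak of the other list lay within 1 kb. This rule gave 3490 one-sided YAP-TFE3 peaks and 2873 one-sided YAP5SA peaks. The one-sided peaks were then divided by whether they overlapped a peak in cells with the empty vector (EV) or in cells with TFE3.

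SW872 is an established human liposarcoma line. All cells were pooled stable lines made with a pBabeNeo retrovirus and selected with G418, so the controls share the virus and the drug. YAP5SA is YAP in which the serines that LATS kinases phosphorylate are changed to alanine, which makes it hyperactive. YAP-TFE3 joins the N terminus of YAP, with its TEAD-binding domain, to the C terminus of TFE3. The titles of its libraries read Yap5SA-TFE3, and the peak lists hold nothing that checks the sequence of the construct. EV cells carried the vector alone and TFE3 cells carried TFE3. The remaining vectors carried TAZ4SA (activated TAZ), CAMTA1, or the fusion TAZ-CAMTA1. Each vector had 3 libraries except TFE3, which had 2, and 1 EV library is titled as a redo.

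YAP and its paralog TAZ are coactivators that do not bind DNA themselves. They reach enhancers through TEAD transcription factors, and the LATS kinases of the Hippo pathway hold them in the cytoplasm. TFE3 is a basic helix-loop-helix leucine zipper factor of the MiT family, known for lysosomal and autophagy genes. YAP-TFE3 is the fusion found in a minority of epithelioid hemangioendotheliomas, while TAZ-CAMTA1 is the fusion found in most of them. In ATAC-seq, the Tn5 transposase cuts open chromatin, and a peak marks a stretch where the cuts are dense.

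One list was deposited for each vector and none for a library. No difference below could therefore be set against the spread between cultures, and no p-value between vectors is given. Intervals are 95% Wilson intervals and cover counting error of peaks only. Each peak is described by 2 measures. The summit height is the −log10 p that the peak caller gave at the summit. The area is the caller's statistic summed over the peak, and it grows with both height and width. Sequencing depth is unknown from these files, and both measures rise with depth. In bulk chromatin, a site open in fewer cells and a site less open in every cell cannot be told apart. A site without a peak in a list is also not shown to be closed. At the 59056 sites with a peak in all 7 lists, the median area was 2161 for YAP-TFE3 and 1235 for YAP5SA. It was 695 for EV, 883 for TFE3, 411 for TAZ4SA, 1852 for CAMTA1 and 2102 for TAZ-CAMTA1. The YAP-TFE3 list thus had the larger areas of the pair where every list had a peak.

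Most strong peaks were common to both vectors, and most peaks found in 1 list alone were weak. Of the YAP-TFE3 peaks, 138441 (58.7%, interval 58.5 to 58.9) overlapped a YAP5SA peak. Of the YAP5SA peaks, 159930 (69.3%, interval 69.1 to 69.5) overlapped a YAP-TFE3 peak. Sharing rose with height. It was 28.0% for YAP-TFE3 peaks with a summit under 4, 84.4% for summits of 6 to 8, and 99.8% for summits of 10 to 15. The matching values for YAP5SA were 42.8%, 89.7% and 99.02%. All 12389 YAP-TFE3 peaks with a summit of 15 or more were shared, as were 5267 of the 5268 YAP5SA peaks of that height. Shared YAP-TFE3 peaks had a median width of 356 bp and a median area of 449, against 107 bp and 62.4 for the others. Shared YAP5SA peaks had medians of 237 bp and 203, against 100 bp and 47.9.

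YAP-TFE3 peaks were broader and took in more of the other list. The YAP-TFE3 list covered 104.4 Mb and the YAP5SA list 86.9 Mb, with 68.5 Mb in both. The common bases were 65.6% of the YAP-TFE3 bases and 78.8% of the YAP5SA bases. A single YAP-TFE3 peak spanned 2 or more YAP5SA peaks in 24114 cases, 17.4% (interval 17.2 to 17.6) of the shared YAP-TFE3 peaks. The reverse held for 8488 YAP5SA peaks, or 5.31% (interval 5.20 to 5.42). The YAP-TFE3 peak that covered the most YAP5SA peaks, 13, lay at chr7:99962435-99972070 on hg19 and was 9636 bp wide. The YAP5SA peak that covered the most YAP-TFE3 peaks, 9, lay at chr16:46418919-46430202 and was 11284 bp wide. These regions were named after their values were seen.

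For a site-by-site comparison, each peak was paired with the peak it overlapped most, where the choice held both ways. This gave 129804 pairs. The YAP-TFE3 area was larger in 74.3% of the pairs, with a median ratio of 1.73 (log2 0.79, quartiles -0.04 and 1.65). It was over 2-fold larger in 55018 pairs, 42.4% of those compared. The YAP5SA area was over 2-fold larger in 15664 pairs, 12.1%. At the sites present in all 7 lists the median log2 ratio was 0.84. Measured from that level, 21.3% of the pairs were over 2-fold to the YAP-TFE3 side and 22.8% over 2-fold to the YAP5SA side. The near balance follows from the centring, since those sites are among the pairs, and is no separate result. Whether a difference in scale between the lists accounts for the larger YAP-TFE3 areas was not tested.

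**Figure D1:**
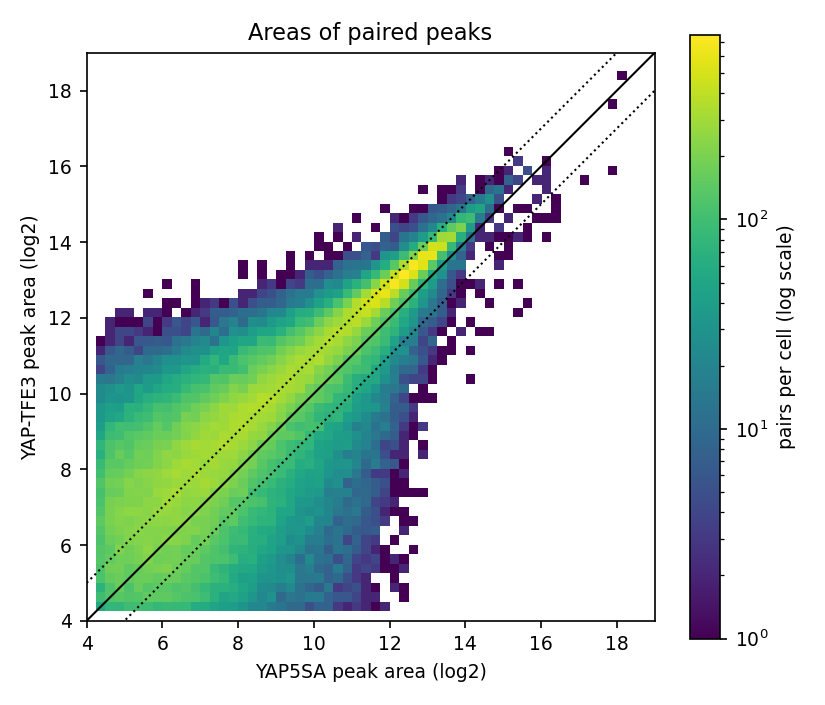
Each cell of the plot counts pairs of overlapping peaks by the area of the YAP5SA peak (x axis, log2) and of the YAP-TFE3 peak (y axis, log2), with color on a log scale. The solid line marks equal areas and the dotted lines 2-fold differences. The densest ridge runs above the solid line, and the spread narrows as areas grow.

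The width moved less than the area. The median width in the pairs was 385 bp for YAP-TFE3 and 281 bp for YAP5SA, with a median ratio of 1.20 (log2 0.26). YAP-TFE3 peaks held the whole YAP5SA peak in 47.8% of pairs and lay wholly within it in 17.3%. Area per base pair had a median log2 ratio of 0.45, so the areas differed per base pair as well. Summits coincided closely. Their median distance was 24 bp (quartiles 7 and 73 bp), 66.2% lay within 50 bp of each other and 2.56% lay over 500 bp apart.

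The pairs differed by height and by what the control lists held. Where the higher of both summits was under 5, the median log2 area ratio was 0.35. It was 1.16 for summits of 6 to 8, 0.76 for 12 to 20 and 0.56 for 20 or more. At summits of 20 or more, 3.93% of 2496 pairs were over 2-fold to the YAP-TFE3 side and 1.60% to the YAP5SA side. The summit distance there was 6 bp. The 82817 pairs whose site had a peak in both EV and TFE3 had a median log2 ratio of 0.92. The 22831 pairs with a peak in neither had 0.09, close to equal areas before any centring. In that class the YAP5SA area was over 2-fold larger in 26.5% of pairs, against 6.03% where EV and TFE3 both had a peak. Measured from the level of the sites in all 7 lists, 14.0% of pairs with neither were over 2-fold to the YAP-TFE3 side and 43.8% to the YAP5SA side. With both control peaks, these were 22.7% and 13.8%. The pairs with neither were weak, with median areas of 80.4 for YAP-TFE3 and 72.2 for YAP5SA, against 1262 and 617 with both. The classes were not matched for height. Of all pairs whose higher summit was under 5, 14.8% were over 2-fold to the YAP5SA side. Measured from the same level, 11.8% of them were over 2-fold to the YAP-TFE3 side and 34.3% to the YAP5SA side.

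Among pairs with a summit of 6 or more in both lists, the 5 highest and the 5 lowest area ratios were drawn out. The largest excess for YAP-TFE3 was at chr6:35014348-35016026 (hg19), with areas of 5400 and 217 and widths of 1679 and 149 bp, a ratio of 24.9. The summits lay 6 bp apart. The YAP-TFE3 peak spanned 3 YAP5SA peaks in all, whose areas summed to 431. The EV area there was 1714 and the TFE3 area 1907, both above that sum. The CAMTA1 area was 3392 and the TAZ-CAMTA1 area 6903, while TAZ4SA had no peak there. At chr4:78458913-78460844 the areas were 4587 for YAP-TFE3 and 249 for YAP5SA, with coinciding summits. The 4 YAP5SA peaks under that YAP-TFE3 peak summed to 1099. EV had 389 there, TFE3 603, TAZ4SA 220, CAMTA1 1111 and TAZ-CAMTA1 2337. The remaining members of this set, at chrX:1499563-1503200, chr17:74561742-74565094 and chr10:72431726-72433927, had ratios of 18.1, 18.02 and 16.5. Their YAP5SA peaks numbered 6, 4 and 5 and summed to 1697, 575 and 495. Every extreme of this kind was thus a broad YAP-TFE3 peak over several small YAP5SA peaks, and the sums narrow the ratios. TAZ4SA lacked a peak in 3 of the 5, and the TAZ-CAMTA1 area exceeded the summed YAP5SA area in each.

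At the other end, the YAP5SA area exceeded that of YAP-TFE3 by 17.1-fold at chr8:97534977-97537042, with areas of 4919 and 288. The YAP-TFE3 peak there was 325 bp wide and the YAP5SA peak 2066 bp, and their summits lay 1152 bp apart. At the YAP-TFE3 peak, TAZ4SA had 248, CAMTA1 262, TFE3 201 and TAZ-CAMTA1 181, and EV had no overlapping peak. These values need not hold for the rest of the YAP5SA peak. At chr6:114337663-114339547 the areas were 5412 for YAP5SA and 346 for YAP-TFE3. TAZ4SA had 2300 there, TFE3 369 and EV 27.5, and TAZ-CAMTA1 had no peak there. At chr7:48466114-48467261 the areas were 5572 for YAP5SA, 381 for YAP-TFE3 and 3210 for TAZ4SA, and neither EV nor TAZ-CAMTA1 had a peak. The strongest of the set was at chr5:165784025-165786489, where YAP5SA had an area of 16966 with a summit of 26.5. YAP-TFE3 had 1332 there, TAZ4SA 11955, EV 3640 and TAZ-CAMTA1 321. At this site both activated coactivators stood above EV, and both fusions stood below it. The last, at chr12:105811246-105813301, had 6067 for YAP5SA and 479 for YAP-TFE3. TAZ4SA had 844 there, below TAZ-CAMTA1 with 962 and CAMTA1 with 1576, while EV had 251 and TFE3 486. Each of these YAP5SA peaks spanned 2 to 4 YAP-TFE3 peaks, whose areas summed to 409 to 1773. Values of the other lists are those of the peak that overlapped the YAP-TFE3 interval most. At each of these sites that interval was narrower than the YAP5SA peak cited.

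The one-sided peaks were a small and weaker share of the strong peaks in both lists. They were 4.34% of the 80465 YAP-TFE3 peaks with a summit of 6 or more and 4.14% of the 69384 such YAP5SA peaks. The rule fixes what counts as one-sided, and these shares move with its limits and with the lists compared. The YAP-TFE3 set had a median width of 340 bp, a median area of 489.5 and a median summit of 6.64. The YAP5SA set had 371 bp, 547 and 6.99. The nearest peak of the other list lay a median of 5845 bp away for YAP-TFE3 and 5964 bp for YAP5SA, and over 10 kb away in 33.8% and 33.6%. Of the YAP-TFE3 members, 1 lay on an unplaced contig where YAP5SA had no peak. The limits of the rule cut through a continuum. For YAP-TFE3, 378 peaks with summits of 6 to 6.1 lay just inside and 408 with summits of 5.9 to 6 just outside, with median areas of 332 and 308. For YAP5SA these were 217 and 215 peaks with areas of 296 and 292. By distance, 70 YAP-TFE3 peaks lay 1 to 1.1 kb from the other list and 74 lay 0.9 to 1 kb from it. For YAP5SA, 44 and 56 did.

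Which list had more one-sided peaks depended on how strong a peak had to be. At a minimum of 6, YAP-TFE3 had 1.21 times as many as YAP5SA. With a minimum of 8 the counts were 403 and 705, a ratio of 0.57. With a minimum of 10 they were 35 and 151, a ratio of 0.23. The strongest one-sided peaks were thus mostly YAP5SA peaks, although the YAP-TFE3 list had more peaks of that height in all, 32582 against 24253.

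The one-sided sets differed in how often the control lists had a peak there. Of the one-sided YAP-TFE3 peaks, 1864 (53.4%, interval 51.8 to 55.1) overlapped an EV peak and 2428 (69.6%, interval 68.0 to 71.1) overlapped a TFE3 peak. Of the one-sided YAP5SA peaks, 284 (9.89%, interval 8.85 to 11.0) overlapped an EV peak and 334 (11.6%, interval 10.5 to 12.8) a TFE3 peak. Neither control list had a peak at 834 YAP-TFE3 members (23.9%, interval 22.5 to 25.3) and 2385 YAP5SA members (83.0%, interval 81.6 to 84.3). Over all peaks with a summit of 6 or more, the background shares were high in both lists. An EV peak lay at 89.2% of such YAP-TFE3 peaks and 86.1% of such YAP5SA peaks, and a TFE3 peak at 95.3% and 90.2%. Neither was present at 3.12% and 8.12%. Both one-sided sets were therefore poorer in control peaks than strong peaks in general, and the YAP5SA set far more so. Strong peaks in general were also taller, and the gap for YAP-TFE3 was smaller at like height. At summits of 6 to 7, EV had a peak at 49.3% of one-sided and 69.6% of all YAP-TFE3 peaks, and TFE3 at 64.4% and 84.5%. For YAP5SA in that band, these were 8.67% and 72.9% for EV and 8.73% and 79.6% for TFE3. The share of one-sided YAP-TFE3 peaks with an EV peak depended on the rule. It was 26.0% of 27732 at a summit minimum of 4 and 43.3% where the control summit had to reach 4. It was 48.3% when the EV list was trimmed to the length of the shortest list and the one-sided set was kept. The YAP5SA shares under the same rules were 9.99%, 6.61% and 8.28%.

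**Figure D2:**
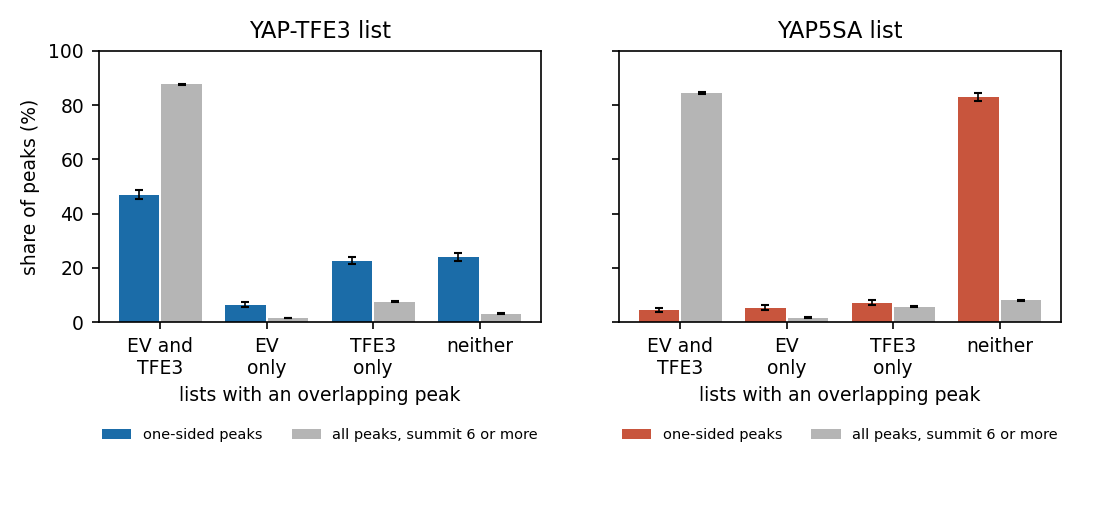
Bars give the share of peaks (y axis, percent) that overlapped a peak of both the EV and TFE3 lists, of 1 of them, or of neither, with 95% Wilson intervals for counting error. Colored bars are one-sided peaks and grey bars all peaks of that list with a summit of 6 or more. One-sided YAP5SA peaks fall mostly in the last class (83.0%), while one-sided YAP-TFE3 peaks spread over all 4 classes.

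The fusion contains the C terminus of TFE3, so sites with a TFE3 peak and no EV peak were counted on their own. Among one-sided YAP-TFE3 peaks, 792 (22.7%) had a TFE3 peak only and 228 (6.53%) an EV peak only, with 1636 (46.9%) in both. Over all YAP-TFE3 peaks with a summit of 6 or more, TFE3 only made up 7.65% and EV only 1.53%. TFE3-only sites thus outnumbered EV-only sites over all strong peaks as well as in the one-sided set. Where a one-sided YAP-TFE3 peak had no EV peak, 48.7% (interval 46.3 to 51.1) had a TFE3 peak, below the 71.0% over all strong YAP-TFE3 peaks without an EV peak. The one-sided YAP5SA peaks without an EV peak had a TFE3 peak in 7.88% (interval 6.90 to 8.98), against 41.5% over all strong YAP5SA peaks without one. The 130 one-sided YAP5SA peaks with both control peaks were the strongest class of that set, with a median area of 836 and a median summit of 7.98.

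The EV and TFE3 peaks at these sites were small. At one-sided YAP-TFE3 peaks the paired EV peak had a median area of 89.9 and a median summit of 4.55, against 520 and 6.74 for the YAP-TFE3 peak itself. The paired TFE3 peak had 112 and 4.56. Only 8.34% of the EV partners and 5.48% of the TFE3 partners reached a summit of 6. The median ratio of YAP-TFE3 to EV area was 5.88, and that of YAP-TFE3 to TFE3 area was 4.56. At one-sided YAP5SA peaks the EV partner had a median area of 51.7 and the TFE3 partner 51.0, with median ratios of 12.2 and 13.0. The control partners were low in both sets and lower in the YAP5SA set. The YAP-TFE3 and YAP5SA peaks had to reach a summit of 6, while the partners had no such minimum. Smaller partners therefore follow in part from the rule, and no such ratio is given here for all strong peaks. List scale moves with these ratios, and its part in them was not tested.

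The lists from the TAZ and CAMTA1 vectors divided the sets further. TAZ-CAMTA1, the other fusion, had a peak at 3087 one-sided YAP-TFE3 peaks (88.5%, interval 87.3 to 89.5) and at 672 one-sided YAP5SA peaks (23.4%, interval 21.9 to 24.97). The background was 98.7% and 93.6%. TAZ4SA, the activated paralog, had a peak at 842 one-sided YAP-TFE3 peaks (24.1%, interval 22.7 to 25.6) and 1545 one-sided YAP5SA peaks (53.8%, interval 51.9 to 55.6). Its background was 77.2% and 86.5%. CAMTA1 had a peak at 83.6% and 38.1%, with backgrounds of 98.2% and 95.4%. In an alternative chosen after seeing the data, the other lists were trimmed to the length of the shortest and the one-sided sets were kept. TAZ-CAMTA1 then had a peak at 78.9% and 11.8% of the sets and CAMTA1 at 71.6% and 24.3%. Both shares at one-sided YAP5SA peaks thus fell by more than 1.5 times. Among the 5 other lists, TAZ-CAMTA1 was thus found most often at one-sided YAP-TFE3 peaks and TAZ4SA most often at one-sided YAP5SA peaks. TAZ-CAMTA1 was also found most often over all strong YAP-TFE3 peaks, so its first place there repeats the background. Over all strong YAP5SA peaks CAMTA1 was found most often. TAZ-CAMTA1 is the list with the most peaks, 236893. TAZ4SA is the list with the fewest peaks, 152702, and the one with the lowest areas at the sites common to all lists.

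These shares changed with summit height. Between one-sided YAP5SA summits of 6 to 7, 40.2% of 1454 peaks overlapped a TAZ4SA peak. This rose to 56.2% of 714 at 7 to 8, to 75.3% of 554 at 8 to 10, and to 94.7% of 151 at 10 or more. TAZ-CAMTA1 remained at 22.0%, 24.8%, 23.1% and 31.1% in the same bands. For one-sided YAP-TFE3 peaks, TAZ4SA was found at 21.2% of 2312, 29.5% of 775, 30.2% of 368 and 31.4% of 35. Its background over all YAP-TFE3 peaks in those bands rose from 47.0% to 98.2%. EV was found at 49.3% to 68.6% of one-sided YAP-TFE3 peaks across the bands and at 8.67% to 23.2% of one-sided YAP5SA peaks. The contrast between the sets in EV, TFE3 and TAZ-CAMTA1 held in each of the 4 bands.

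**Figure D3:**
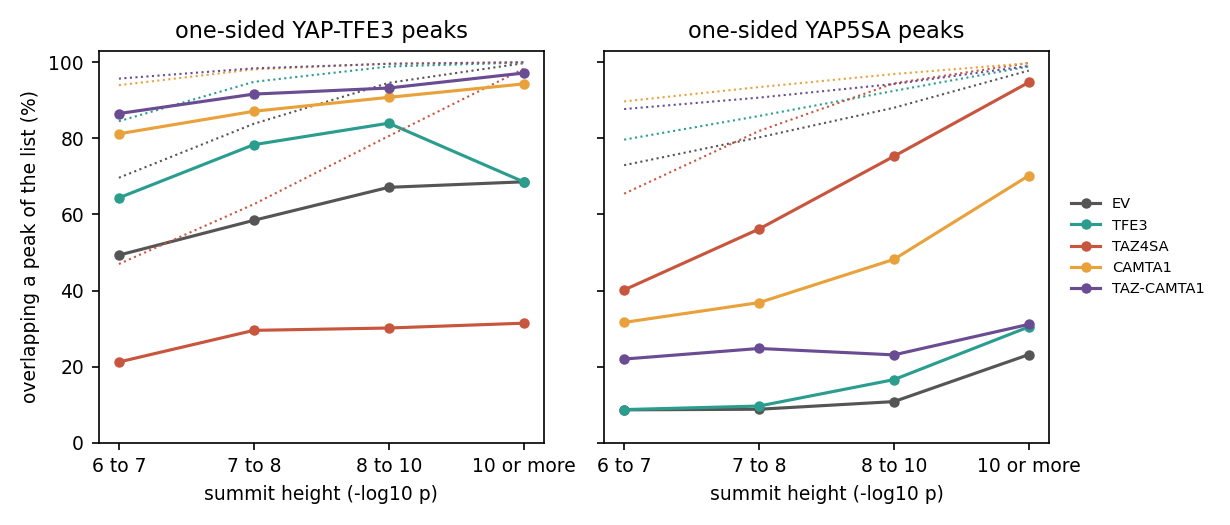
Lines with points give the share (y axis, percent) of one-sided YAP-TFE3 peaks (left) and one-sided YAP5SA peaks (right) that overlapped a peak of each other list, by summit height (x axis, −log10 p). Dotted lines give the same share over all peaks of that list in the band. The TAZ4SA line climbs to 94.7% for YAP5SA and stays at or below 31.4% for YAP-TFE3.

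The full pattern over the other lists was also unlike. The most common pattern at one-sided YAP-TFE3 peaks was a peak in EV, CAMTA1, TFE3 and TAZ-CAMTA1 and none in TAZ4SA, 1068 of 3490 (30.6%). Another 500 (14.3%) had a peak in every list but YAP5SA, and 183 (5.24%) had a peak in no other list. At one-sided YAP5SA peaks, the most common pattern was no peak in any other list, 787 of 2873 (27.4%). TAZ4SA alone followed with 739 (25.7%), and TAZ4SA with CAMTA1 with 344 (11.97%). A peak in every list but YAP-TFE3 was seen at 73 (2.54%). Most one-sided YAP-TFE3 peaks had no TAZ4SA peak, while the lack of a YAP5SA peak is set by the rule. TAZ4SA is the shortest list. At summits of 6 to 7 it had a peak at 21.2% of one-sided and 47.0% of all YAP-TFE3 peaks. One-sided YAP5SA peaks were mostly sites found in no other list (787) or in 1 of them (1022).

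Where the other lists had a peak, it was nearest in size for TAZ-CAMTA1 at YAP-TFE3 sites and for TAZ4SA at YAP5SA sites. The TAZ-CAMTA1 partner had a median area of 312, against 501 for YAP-TFE3, and was the larger of the pair at 26.6% of 3064 sites. The median ratio was 1.56. The TAZ4SA partner of one-sided YAP-TFE3 peaks had a median area of 62.5, with a ratio of 9.17. At one-sided YAP5SA peaks the TAZ4SA partner had a median area of 124, with a ratio of 5.51, and the TAZ-CAMTA1 partner had 78.4, with a ratio of 7.91. A TAZ4SA partner with a summit of 6 or more was present at 427 of 1541 such sites (27.7%). CAMTA1 came next in both sets, with ratios of 2.35 at YAP-TFE3 sites and 7.37 at YAP5SA sites. At the sites common to all lists, TAZ-CAMTA1 was also nearest to YAP-TFE3 in median area, 2102 against 2161. Its first place at YAP-TFE3 sites thus repeats that order, while TAZ4SA had the lowest area at the common sites, 411.

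Examples of each class were taken by the largest area, 3 to a class, and positions are on hg19. Among one-sided YAP-TFE3 peaks with EV and TFE3 peaks, the largest was at chr20:5716769-5718780, with an area of 5239. CAMTA1 had 2513 there, TAZ-CAMTA1 2848, TFE3 959, EV 770 and TAZ4SA 33.8, and the nearest YAP5SA peak lay 6457 bp away. This site had a peak in every list except YAP5SA. At chr4:80251766-80253014 YAP-TFE3 had 4788 and TAZ-CAMTA1 960. EV, CAMTA1 and TFE3 had 114, 95.5 and 144, and the nearest YAP5SA peak lay 120076 bp away. The next, at chr5:151667959-151669315, had 4673 in YAP-TFE3. Among sites with TFE3 only, chr2:15182955-15184079 had an area of 3390 in YAP-TFE3 and 20.7 in TFE3. A neighboring member of the same class lay at chr2:15178316-15180031, with 2500 in YAP-TFE3 and 29.9 in TFE3. At chr14:53319158-53320471 YAP-TFE3 had 2588, TAZ-CAMTA1 1943 and TFE3 132. The TFE3 peaks at these 3 sites were far below the YAP-TFE3 peaks, by whose area the sites were chosen. Sites with EV only lay at chr6:1069771-1070847, chr3:101881731-101882903 and chr1:6107353-6109708. YAP-TFE3 areas there were 3597, 3456 and 2594, and EV areas 29.6, 61.01 and 20.3. Sites with neither lay at chr3:189489428-189490731, chr18:74974277-74975830 and chr2:205271580-205272777, with areas of 3700, 3409 and 3195. TAZ-CAMTA1 had a peak at each of the last 3, with areas of 624, 241 and 80.4, and TAZ4SA had none.

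Among one-sided YAP5SA peaks with neither control peak, the largest was at chr8:118822805-118824449, with an area of 6639 and a summit of 14.9. TAZ4SA had 3967 there with a summit of 11.2 and CAMTA1 had 52.96, while YAP-TFE3 had no peak within 2 kb. At chr1:112320785-112322093 YAP5SA had 4383 and TAZ4SA 1413. At chr18:76610908-76612080 they had 4043 and 3338. In these 3 sites TAZ-CAMTA1 had no peak. With TFE3 only, the highest one-sided summit of all, 15.4, lay at chr5:52765740-52766908, with areas of 4239 for YAP5SA, 2396 for TAZ4SA and 118 for TFE3. The others of that class were chr5:82272160-82273167 and chr9:38383089-38384286, with 4181 and 3428. With EV only, YAP5SA areas were 4734 at chr6:24980540-24982039, 3876 at chr7:149445170-149446169 and 3516 at chr20:9310000-9311129, and EV areas were 24.5, 143 and 28.5. With both controls, YAP5SA areas were 3982 at chr9:112532888-112534638, 3682 at chr14:71221238-71222615 and 3375 at chr1:12696162-12697518. TAZ4SA had a peak at each of these 12 YAP5SA sites and at 2 of the 12 YAP-TFE3 sites.

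TAZ4SA and TAZ-CAMTA1 form another pair of an activated coactivator and a fusion, from cells with other vectors. A site was scored where TAZ4SA had a peak and TAZ-CAMTA1 had none within 1 kb. This held for 1161 one-sided YAP5SA peaks (40.4%, interval 38.6 to 42.2), against 3.08% of all YAP5SA peaks with a summit of 6 or more. It held for 67 one-sided YAP-TFE3 peaks (1.92%, interval 1.51 to 2.43). A TAZ-CAMTA1 peak with no TAZ4SA peak within 1 kb lay at 2203 one-sided YAP-TFE3 peaks (63.1%, interval 61.5 to 64.7), against 15.9% of all YAP-TFE3 peaks with a summit of 6 or more. It lay at 309 one-sided YAP5SA peaks (10.8%, interval 9.67 to 11.9). Sites with a peak for YAP-TFE3 and none for YAP5SA were thus, at this summit minimum, more often than not sites with a peak for TAZ-CAMTA1 and none for TAZ4SA. For sites one-sided to YAP5SA, the TAZ4SA side was the more common of the 2. These backgrounds were not matched for height, and the score was not repeated on trimmed lists. Summits of 6 to 7 held 2312 of the 3490 one-sided YAP-TFE3 peaks. Over all YAP-TFE3 peaks in that band, TAZ-CAMTA1 had a peak at 95.7% and TAZ4SA at 47.0%. TAZ-CAMTA1 is the longest list, with 236893 peaks, and TAZ4SA the shortest, with 152702.

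The same order was seen in the areas at the 59056 sites with a peak in every list. Over all of them the median log2 ratio of TAZ-CAMTA1 to TAZ4SA was 2.04. Where the YAP5SA area was over 2-fold larger than that of YAP-TFE3 (3223 sites), it was 0.50 (quartiles -0.97 and 1.92). Where the YAP-TFE3 area was over 4-fold larger (8809 sites), it was 3.33 (quartiles 2.26 and 4.47). Across sites, the log2 ratios had a Pearson r of 0.44 and a Spearman rho of 0.45. These ratios share no list, but the TAZ-CAMTA1 and TAZ4SA peaks were chosen as partners of the YAP-TFE3 peak. The extent of that peak thus enters 1 ratio and the choice of peaks for the other. Neighboring sites and peak widths also make the points dependent, so the coefficients are a description.

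**Figure D4:**
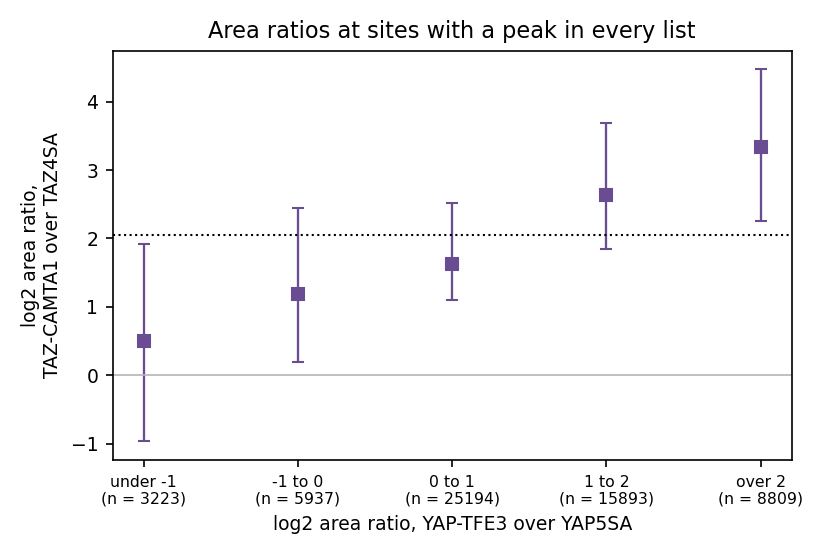
Squares give the median log2 ratio of TAZ-CAMTA1 to TAZ4SA area (y axis) at sites with a peak in every list, grouped by the log2 ratio of YAP-TFE3 to YAP5SA area (x axis), and bars give the quartiles over sites. The dotted line is the median over all sites, 2.04. The medians step up from 0.50 to 3.33. The TAZ-CAMTA1 and TAZ4SA peaks are those paired with the YAP-TFE3 peak, so the axes are not independent.

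Applied to other pairs of lists, the same rule gave unequal directions. YAP-TFE3 against TFE3 gave 2521 one-sided YAP-TFE3 peaks (3.13%), and TFE3 against YAP-TFE3 gave 4 of 47513. YAP-TFE3 against TAZ-CAMTA1 gave 812 (1.01%), and the reverse gave 357 (0.477%). YAP5SA against TAZ4SA gave 5755 (8.29%), and the reverse gave 150 (0.337%). Strong TFE3 peaks thus lay almost wholly within reach of a YAP-TFE3 peak. So did strong EV peaks, of which 77 of 46845 (0.16%) were one-sided against YAP-TFE3. Between YAP-TFE3 and YAP5SA the one-sided shares were 4.34% and 4.14%. These comparisons share lists, and the numbers of peaks in them differ.

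One-sided peaks of both sets were spread over the genome, with chromosome 19 as an exception for YAP5SA. On chromosome 19, 110 of 3055 strong YAP-TFE3 peaks were one-sided (3.60%, interval 3.00 to 4.32), against 21 of 2389 strong YAP5SA peaks (0.88%, interval 0.58 to 1.34). On chromosome 22 the shares were 5.07% and 2.64%. On chromosome 18 they were the highest of any chromosome in both sets, 6.72% (interval 5.53 to 8.14) and 6.86% (interval 5.60 to 8.39), and chromosome 4 followed with 6.21% and 5.95%. In the TAZ pair, TAZ4SA peaks with no TAZ-CAMTA1 peak within 1 kb made up 1.04% (interval 0.64 to 1.69) on chromosome 19 and 2.75% over all. TAZ-CAMTA1 peaks with no TAZ4SA peak made up 20.3% on chromosome 19 and 17.4% over all. The deficit on chromosome 19 was thus also present for TAZ4SA.

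**Figure D5:**
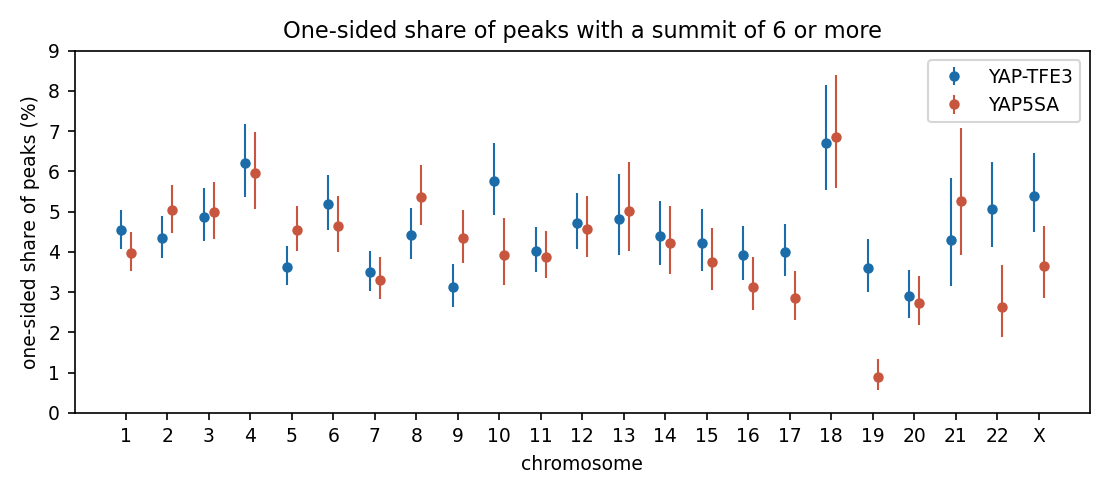
Points give the one-sided share (y axis, percent) of peaks with a summit of 6 or more on each chromosome (x axis) for YAP-TFE3 and YAP5SA, with 95% Wilson intervals for counting error. Chromosome 18 is the highest in both, and the YAP5SA share on chromosome 19, 0.88%, is the lowest.

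Some stretches held several one-sided peaks. In bins of 500 kb, one-sided YAP-TFE3 peaks fell in 2127 bins and one-sided YAP5SA peaks in 1859, of which 814 held both. Bins with 5 or more held 7.54% of the YAP-TFE3 set and 4.91% of the YAP5SA set. The richest, named after their values were seen, was chr5:94000001-94500000 (hg19) with 10 one-sided YAP-TFE3 peaks among 94 YAP-TFE3 peaks, against 27 YAP5SA peaks. Of the 10, EV had a peak at 4, TAZ-CAMTA1 at 1 and CAMTA1 at 1, and neither TFE3 nor TAZ4SA had any. Its make-up differed from that of the whole set, in which TAZ-CAMTA1 and CAMTA1 were the most common. For YAP5SA, chr18:76500001-77000000 held 7 one-sided peaks among 110 YAP5SA peaks, against 52 YAP-TFE3 peaks. TAZ4SA had a peak at 6 of the 7, CAMTA1 at 2, and EV, TFE3 and TAZ-CAMTA1 at none.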

How the data were processed

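ATAC-seq was made from SW872 cells with Tn5. Per the study's methods, the authors trimmed adapters with NGmerge, aligned reads to hg19 with BWA-MEM and called peaks with Genrich in ATAC mode. Duplicates, blacklisted regions, the mitochondrial genome and some contigs were left out. The submitters' processing notes name another build and aligner, which the coordinates in the files do not match. The deposited signal is the area under the caller's statistic, from 20 upward, and the deposited summit height is a −log10 p-value. The methods state that peaks were called for each replicate separately, yet 1 list was deposited per vector. How the 3 libraries (2 for TFE3) became 1 list, or whether a list stems from 1 library, is not given in the sources used here, so what an area or summit averages over is unknown. Deposited values had no further normalization.

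Overlaps, distances and pairs were computed with numpy 2.4.6 and pandas 2.3.3, tested on simulated lists and checked against bedtools 2.31.1, with 0 distances that differed. Members and comparisons were chosen with earlier results of these data known. Sites named are the 3 largest areas in each class and direction and the 5 pairs with the highest and the lowest area ratio with a summit of 6 or more in both lists. Exceptions are stated. With 1 list for each vector, no test between vectors, leave-one-out or paired fit could be made. Alternatives covered overlap, summit minimum, distance, equal numbers, autosomes and scale. The genome and gene annotation at hand were GRCh38 and coordinates were not converted, so genes, motifs and sequences are not analysed here.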

Additional observations from a re-analysis of the deposited data

How the results depend on the processing

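No alternative was compared with a spread between libraries, since each vector had 1 list. No paired analysis was possible because each vector has a single list and no library has values of its own, and leaving out a replicate could not be done for the same reason. The shared percentages of YAP-TFE3 and YAP5SA peaks were 36.1 and 36.8 where both peaks had to overlap by 50%, 66.95 and 69.7 for 250 bp around either side of a summit, 62.6 and 72.3 with summits of 4 or more in both lists, 66.3 and 82.96 with summits of 6 or more, 59.5 and 68.9 with equal numbers of peaks. Of the pairs, the percentages over 2-fold to the YAP-TFE3 and the YAP5SA side were 39.5 and 12.7 with exactly 1 partner both ways, 32.6 and 8.46 at 50% overlap, 32.7 and 3.97 with summits of 6 or more, 41.8 and 5.46 at sites in all 7 lists, 24.4 and 7.94 per base pair, 21.3 and 22.8 once centred on the sites in all 7 lists. That centring turned the median log2 area ratio to -0.042, which the construction of the alternative fixes near 0. One-sided YAP-TFE3 and YAP5SA counts were 27732 and 20640 at a summit minimum of 4, 9966 and 6498 at 5, 403 and 705 at 8, 35 and 151 at 10, 5412 and 3990 where a peak of the same summit minimum only had to have no overlap, 1916 and 1603 at a distance of 5 kb, and the ratio of the counts turned to 0.57 at 8 and 0.23 at 10. The percentages of one-sided YAP-TFE3 peaks with EV, with TFE3 and with neither were 57.5, 72.1 and 21.2 for presence within 1 kb, 43.3, 54.2 and 35.9 for control summits of 4 or more, 25.95, 32.3 and 58.4 at a summit minimum of 4, 67.2, 82.6 and 13.4 at 8, 50.2, 65.2 and 27.6 at 5 kb, 48.3, 68.1 and 25.9 with equal numbers of peaks from every list, an alternative chosen after seeing the data. The percentages of one-sided YAP5SA peaks with EV, with TFE3 and with neither were 12.7, 13.4 and 79.3 for presence within 1 kb, 6.61, 5.53 and 89.8 for control summits of 4 or more, 9.99, 5.14 and 86.8 at a summit minimum of 4, 13.5, 19.6 and 75.9 at 8, 8.796, 11.5 and 83.9 at 5 kb, 8.28, 10.999 and 84.3 with equal numbers of peaks from every list, an alternative chosen after seeing the data. Equal numbers here applied to the lists searched for a peak, while the one-sided sets remained those called from the full lists. In each of these alternatives the one-sided YAP5SA set had the lower share of EV and of TFE3 peaks. With a TAZ4SA, a CAMTA1 and a TAZ-CAMTA1 peak, the one-sided YAP-TFE3 percentages were 27.97, 85.8 and 89.8 within 1 kb and 24.1, 71.6 and 78.9 with equal numbers, and the YAP5SA percentages 59.5, 43.8 and 27.5 within 1 kb and 53.8, 24.3 and 11.8 with equal numbers. The causes of these differences were not tested. Depth per library is unknown, and a weak site can miss a list through the peak caller's minimum area of 20.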

Other observations

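Against EV, the same rule gave 6128 one-sided YAP-TFE3 peaks (7.62% of those with a summit of 6 or more) and 7282 one-sided YAP5SA peaks (10.5%). In the other direction, 77 EV peaks had no YAP-TFE3 peak within 1 kb (0.16%) and 309 had no YAP5SA peak within 1 kb (0.66%). Both vectors were thus compared with a list that held few strong sites of its own. Among the pairs of YAP-TFE3 and YAP5SA peaks, an EV peak lay at 75.6% of those over 2-fold to the YAP-TFE3 side, at 72.8% of those within 2-fold and at 44.5% of those over 2-fold to the YAP5SA side. For TFE3 the shares were 82.5%, 76.4% and 48.8%, and for TAZ4SA 55.6%, 65.0% and 51.4%.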
